A study of Mus musculus with 12 samples.

Results

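The Hox genes are the homeobox transcription factors of the HoxA, HoxB, HoxC and HoxD clusters. They were taken here as every gene with a probe on the arrays whose symbol is Hoxa, Hoxb, Hoxc or Hoxd followed by a number, which gave 37 genes (47 probes) of the 17016 genes with a probe. RefSeq lists 39 mouse Hox genes, and no probe was matched to Hoxc6 or Hoxc11. HoxA (chromosome 6) had all 11 of its genes on the array, HoxB (chromosome 11) all 10, HoxC (chromosome 15) 7 of 9 and HoxD (chromosome 2) all 9. Of the 37, 26 passed the filter on dim signal (well above background throughout the 3 arrays of some group) and were tested, among 12411 genes in all.

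Hox proteins bind DNA through a homeodomain, usually together with Pbx and Meis proteins, and give cells their address along the head-to-tail axis and in the limbs. Genes at the 3′ end of a cluster (low paralogue numbers) come on first and in more anterior tissue, and genes at the 5′ end (high numbers) come on later and more posteriorly, an arrangement called collinearity. Fibroblasts keep much of the Hox pattern of the place they came from in culture. Polycomb proteins hold silent Hox genes off, Trithorax proteins keep active ones on, and retinoic acid induces many 3′ genes.

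Messenger RNA was measured in 12 cultures of mouse embryonic fibroblasts on 1-colour Agilent arrays, 1 array per culture. The FAK KO line lacks focal adhesion kinase, the product of Ptk2. The FAK Rescue line is clone DA2, a single clone of such cells in which FAK was put back. Both lines were grown in DMEM with Glutamax and 10% FBS. Rescue cells alone also received hygromycin B (135 µg/ml) and non-essential amino acids, so that line, clone and medium cannot be told apart. Cells were seeded in 10 cm dishes at 410000 (sparse) or 8200000 (dense) cells per dish and harvested after 24 h. Each of the 4 groups (rescue sparse, rescue dense, KO sparse, KO dense) had 3 biological replicates, 1 from each of 3 experimental days, numbered 1 to 3. In bulk RNA, fewer cells that express a gene and less RNA per cell cannot be told apart.

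Levels are log2 of the processed spot signal minus the 75th percentile of the array, so that 0 is the signal below which 75% of the probes of that array lie. Levels of different probes were not set against each other. On the 12 arrays the median signal was 18.8 to 80.1 intensity units, 23143 to 26174 of 41174 probes were well above background, and replicates of a group correlated at 0.982 to 0.992 (taken over genes, which do not count as replicates). Both probes of Ptk2 gave a signal well above background on each of the 12 arrays. The brighter lay between 0.08 and 0.48 in rescue cells and between 0.03 and 0.5 in KO cells. The other probe lay between -0.97 and 1.24 in rescue cells and between -1.88 and -1.1 in KO cells. The sources used here do not say whether these probes fall in the deletion, so they do not check the labels. The deposited value table disagrees with the scanner files on day 3. Of its 12 columns, 8 correlated best with their own array. The 4 day 3 columns correlated best with the array of the other line at the same density. For these columns the best correlation was 0.972 to 0.984, against 0.833 to 0.874 for the array of the same label. All results rest on the scanner files, whose day 3 arrays correlated with days 1 and 2 of their labelled group in the range above. Counts without day 3 are given beside the results.

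To set side by side the sequences of genes of the same number that moved in opposite directions, the promoters of paralogue groups 4 and 8 from the HoxD and HoxB clusters are printed. Hoxd4 and Hoxd8 were well above background in KO cells alone, and Hoxb4 and Hoxb8 were lower in KO than in rescue cells. Each sequence is the 250 bases before the RefSeq start, 5′ to 3′ on the plus strand, in build GRCm38.p6, with the homeodomain core TAAT or its reverse complement ATTA in capitals. They lie at chr2:74721728-74721977 (Hoxd4), chr2:74704365-74704614 (Hoxd8), chr11:96318017-96318266 (Hoxb4) and chr11:96281655-96281904 (Hoxb8).
Hoxd4: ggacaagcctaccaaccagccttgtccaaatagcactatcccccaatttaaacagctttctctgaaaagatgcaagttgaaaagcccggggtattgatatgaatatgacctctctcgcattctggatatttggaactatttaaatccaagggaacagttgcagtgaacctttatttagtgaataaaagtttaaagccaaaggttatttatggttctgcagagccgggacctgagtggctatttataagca
Hoxd8: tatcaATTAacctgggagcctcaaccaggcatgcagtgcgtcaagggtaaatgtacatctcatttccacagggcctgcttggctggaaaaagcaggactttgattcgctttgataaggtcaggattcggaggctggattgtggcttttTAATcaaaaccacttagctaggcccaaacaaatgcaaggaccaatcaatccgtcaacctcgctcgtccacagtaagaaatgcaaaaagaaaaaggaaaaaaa
Hoxb4: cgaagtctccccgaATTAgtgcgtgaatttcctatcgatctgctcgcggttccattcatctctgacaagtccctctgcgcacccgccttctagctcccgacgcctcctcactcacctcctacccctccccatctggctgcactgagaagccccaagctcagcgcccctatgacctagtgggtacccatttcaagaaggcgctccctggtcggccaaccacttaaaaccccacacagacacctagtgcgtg
Hoxb8: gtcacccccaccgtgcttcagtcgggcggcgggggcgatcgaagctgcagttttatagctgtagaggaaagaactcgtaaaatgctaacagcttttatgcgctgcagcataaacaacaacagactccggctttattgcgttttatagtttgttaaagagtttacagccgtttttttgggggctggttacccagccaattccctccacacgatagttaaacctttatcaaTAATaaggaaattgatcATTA
The Hoxd4 promoter holds no TAAT core, Hoxd8 holds 2, Hoxb4 holds 1 and Hoxb8 holds 2. GC content is 40.4% for Hoxd4, 44.4% for Hoxd8, 58% for Hoxb4 and 44.4% for Hoxb8. The ratio of observed to expected CpG is 0.29 and 0.49 in the HoxD pair and 0.76 and 0.97 in the HoxB pair. Beyond these pairs the ratio overlapped between genes higher and genes lower in KO cells. It was 0.80 for Hoxd3 and 0.49 for Hoxd9, both higher, and 0.27 for Hoxa9 and 1.11 for Hoxa5, both lower. RefSeq promoters were matched for 22 of the 39 Hox genes (24 promoters). TAAT on either strand was found in 18 of these 24 (75%), against 54.9% of the 32851 promoters of the table, with overlapping matches allowed. CCAAT or ATTGG was found in 14 of 24 (58.3%, against 33.8%), and TATAAA or TTTATA in 4 (16.7%, against 12.4%). The median CpG ratio was 0.72 in Hox promoters and 0.37 in all. These are descriptions of the letters in the windows, and no binding was measured.

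The 2 lines had different sets of Hox genes above background. In KO cells 26 of 37 Hox genes were well above background on the 3 arrays of 1 or both densities, and in rescue cells 19, all of them among the 26. Hoxa10, Hoxc9, Hoxd4 and Hoxd8 were well above background on all 6 KO arrays and on no rescue array. That is 4 of 37 Hox genes (10.8%), against 1.06% of all genes with a probe. The reverse, all 6 rescue arrays and no KO array, held for no Hox gene and for 1.5% of all genes. A further 17 Hox genes (45.9%, against 59% of all genes) were well above background on all 12 arrays. They included Hoxa2 to Hoxa7, Hoxa9, Hoxb2 to Hoxb9 and Hoxc4. Over the whole array 72.9% of genes entered the tests, against 70.3% of Hox genes.

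**Figure D1:**
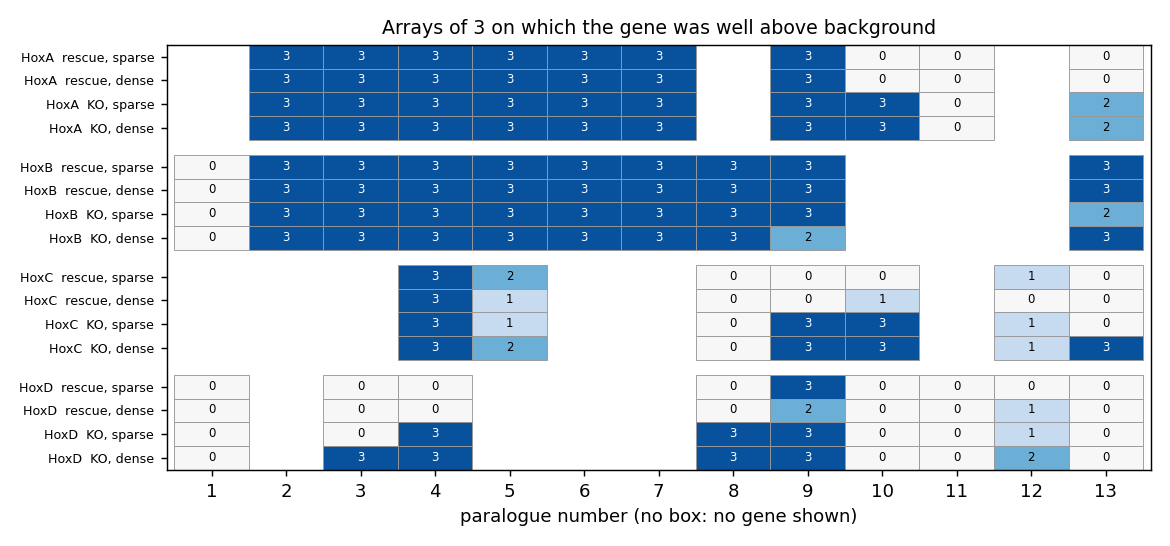
Number of arrays, of 3 in each group, on which the probe that stands for a Hox gene was well above background, by cluster and group (rows) and paralogue number (columns). HoxA 2 to 9 and HoxB 2 to 8 are filled in both lines, while HoxA 10, HoxC 9 and HoxD 4 and 8 are filled in KO cells and at 0 in rescue cells. The 2 for HoxB 9 in dense KO cells includes 1 spot set to missing as an outlier.

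Across the 4 clusters, 7 Hox genes were well above background on no array: Hoxa11, Hoxb1, Hoxc8, Hoxd1, Hoxd10, Hoxd11 and Hoxd13 (18.9%, against 15.3% of all genes). In the HoxD cluster, KO cells thus had signal from Hoxd3 to Hoxd9 and none well above background at Hoxd1 or at Hoxd10, Hoxd11 and Hoxd13. In HoxA the last gene well above background on all arrays of a group was Hoxa9 in rescue cells and Hoxa10 in KO cells. Hoxa13, Hoxc5, Hoxc12 and Hoxd12 were above background on scattered arrays and entered no test. Hoxa13 was above background on 4 KO arrays (-4.36, -4.2, -5.13 and -4.91) and on no rescue array. Hoxc5 was uneven among replicates, at -5.5, 1.11 and -6.03 in sparse KO cells, and at -3.87 and -0.91 in dense KO cells with the day 2 spot missing. Hoxc12 was above background on 3 arrays and reached -0.9 on the sparse KO array of day 3, while its other 11 arrays lay between -7.6 and -3.79. Hoxd12 was above background on 1 rescue and 3 KO arrays.

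KO and rescue cells were then compared at each density, with limma over all 12411 genes (Benjamini-Hochberg adjusted p under 0.05). In sparse cells 10 of the 26 tested Hox genes were higher in KO (23.3% of all genes were), 13 were lower (25.6% of all genes) and 3 did not pass. In dense cells 13 were higher (31.9% of all genes), 12 were lower (29.8% of all genes) and 1 did not pass. Of the 26, 7 (Hoxa10, Hoxc9, Hoxc10, Hoxc13, Hoxd3, Hoxd4 and Hoxd8) passed the filter on dim signal through KO arrays alone and so had to lie higher in KO cells. For Hoxc13 and Hoxd3, which passed through the dense KO arrays, this holds in dense cells alone. In sparse cells neither line was well above background by the probes that stand for them. The other 19 passed the filter in both lines. Of these 19, 3 were higher and 13 lower in sparse KO cells, and 6 were higher and 12 lower in dense KO cells. Their median absolute log2 difference was 2.83 in sparse and 2.86 in dense cells, against 0.64 and 0.88 over all genes tested. All 9 tested HoxB genes passed the filter in both lines and were lower in KO at both densities. Of the HoxC and HoxD genes only Hoxc4 and Hoxd9 passed it in both lines. HoxA held both directions. The same direction was called at both densities for 22 genes, 12 lower and 10 higher. The 10 include the 7 that passed the filter through KO arrays alone. The share of all genes called in the same direction at both densities was not counted. The calls at the 2 densities come from different arrays of the same lines and days. They share 1 estimate of the spread.

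**Figure D2:**
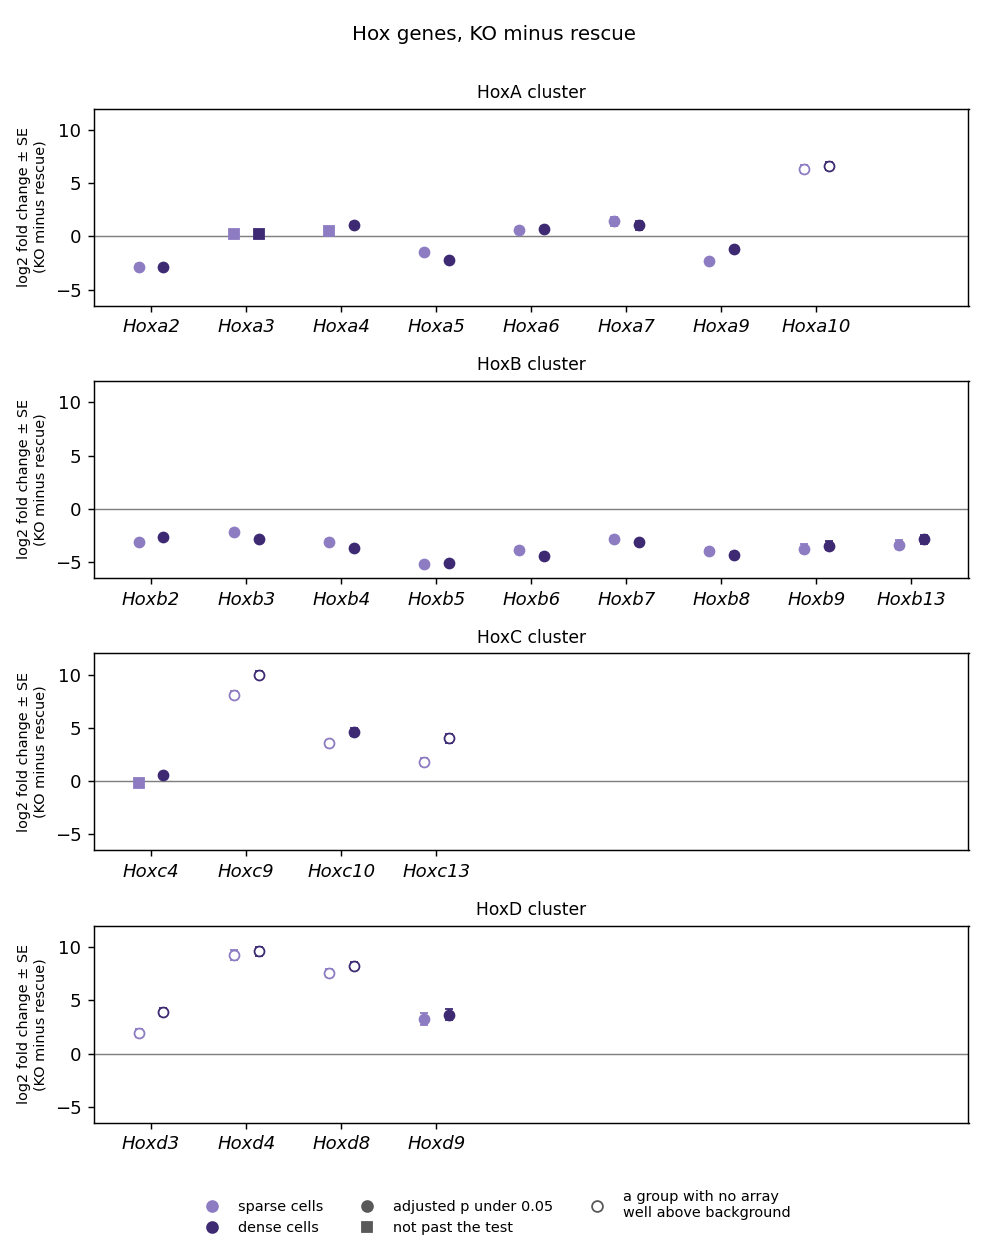
Log2 fold change of KO minus rescue (y axis, with SE from the model, often smaller than the symbol) for 25 tested Hox genes in cluster order (x axis), in sparse and dense cells, 3 arrays per group. Squares did not pass, and open symbols have a group with no array well above background, so that their height is no bound. HoxB lies below 0 throughout, from -5.16 to -2.15, and HoxD lies above 0.

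The lines shared a slide only on day 2. Within that slide all 23 sparse calls had the sign of the fit, as did 24 of the 25 dense calls. For Hoxb9 in dense cells there was no value. The arrays of that slide were part of the fit, so equal signs are no separate check. Sizes differed: in dense cells Hoxa7 gave 0.13 against 1.05 in the fit, Hoxa6 0.21 against 0.71 and Hoxa10 7.61 against 6.6. Without day 3, 8 Hox genes were higher and 12 lower in sparse KO cells, and 10 were higher and 12 lower in dense KO cells. Of the calls between the lines, 17 of 23 in sparse and 19 of 25 in dense cells were kept in direction and threshold under all 25 alternatives tried with the deposited table as labelled left out; as labelled, that table gave 0 Hox calls. Scaling to the spike-in RNA put the median of all genes at -1.44 (sparse) and 0.74 (dense), from 0.02 and 0.07, and gave 6 higher and 16 lower Hox genes in sparse cells. Direction flipped under that scaling for Hoxa3, Hoxa4, Hoxa6 and Hoxa7 in sparse cells, and for no other Hox gene between the lines.

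In the HoxB cluster the 9 tested genes, Hoxb2 to Hoxb9 and Hoxb13, fell together. Their median log2 difference was -3.38 in sparse and -3.46 in dense cells, against 0.02 and 0.07 over all genes. Hoxb5, a central gene of the cluster known for its part in lung and enteric nerve development, had levels of 1.13, 1.04 and 0.9 in sparse rescue cells and 1.63, 1.77 and 1.96 in dense rescue cells. In KO cells it had -4.06, -4.11 and -4.25 when sparse and -3.02, -3.15 and -3.63 when dense. No KO array came within 3 log2 units of a rescue array. The fall was 35.8-fold in sparse (log2 -5.16 ± 0.19 SE, adjusted p = 5.87e-10) and 33.3-fold in dense cells (-5.06 ± 0.19, adjusted p = 5.05e-10).

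Hoxb6 had 2.46, 2.92 and 1.9 in sparse rescue cells against -1.26, -1.58 and -1.59 in sparse KO cells, a 15-fold fall, and in dense cells it fell 22.4-fold. Hoxb8, studied for its role in spinal cord and blood progenitors, had -0.02, 0.65 and 0.1 in sparse rescue cells and -3.76, -3.56 and -3.92 in sparse KO cells, 15.9-fold lower, and was 20.7-fold lower in dense KO cells. Hoxb4, known from blood stem cell expansion, had -0.33, 0.05 and 0.21 against -3.11, -2.94 and -3.29 (8.52-fold lower in sparse and 13.3-fold in dense cells). For these 3 genes the rescue and KO arrays did not overlap. Printed above, the Hoxb4 and Hoxb8 promoters belong to this group.

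Hoxb7, a trunk gene, had 3.41, 3.25 and 3.35 in sparse rescue cells and 0.76, 0.33 and 0.42 in sparse KO cells (log2 difference -2.83 ± 0.24, adjusted p = 9.21e-07). Hoxb2, a hindbrain segment gene, had 1.62, 1.93 and 1.52 against -1.32, -1.49 and -1.59 (8.9-fold lower), and was 6.4-fold lower in dense cells. Hoxb3 had the smallest fall of the cluster in sparse cells, at 4.44-fold, and its 2 probes gave log2 differences of -2.15 and -2.48 there. So the KO level was lowered but still well above background for these genes. Hoxb9, a trunk gene, was 13.5-fold lower in sparse and 11-fold lower in dense cells, the latter from 2 KO arrays because the day 2 spot was set to missing. Its other probe had all arrays and gave -4.45 and -3.87. Hoxb13, the most 5′ gene of the cluster and a marker of the tail end and prostate, was at -1.66, -1.36 and -1.47 in sparse rescue cells and at -5.61, -3.69 and -5.34 in sparse KO cells, 10.4-fold lower, with the -5.61 not well above background. Hoxb1, the most 3′ gene, was not above background on any array (-8.44 to -7.12).

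**Figure D3:**
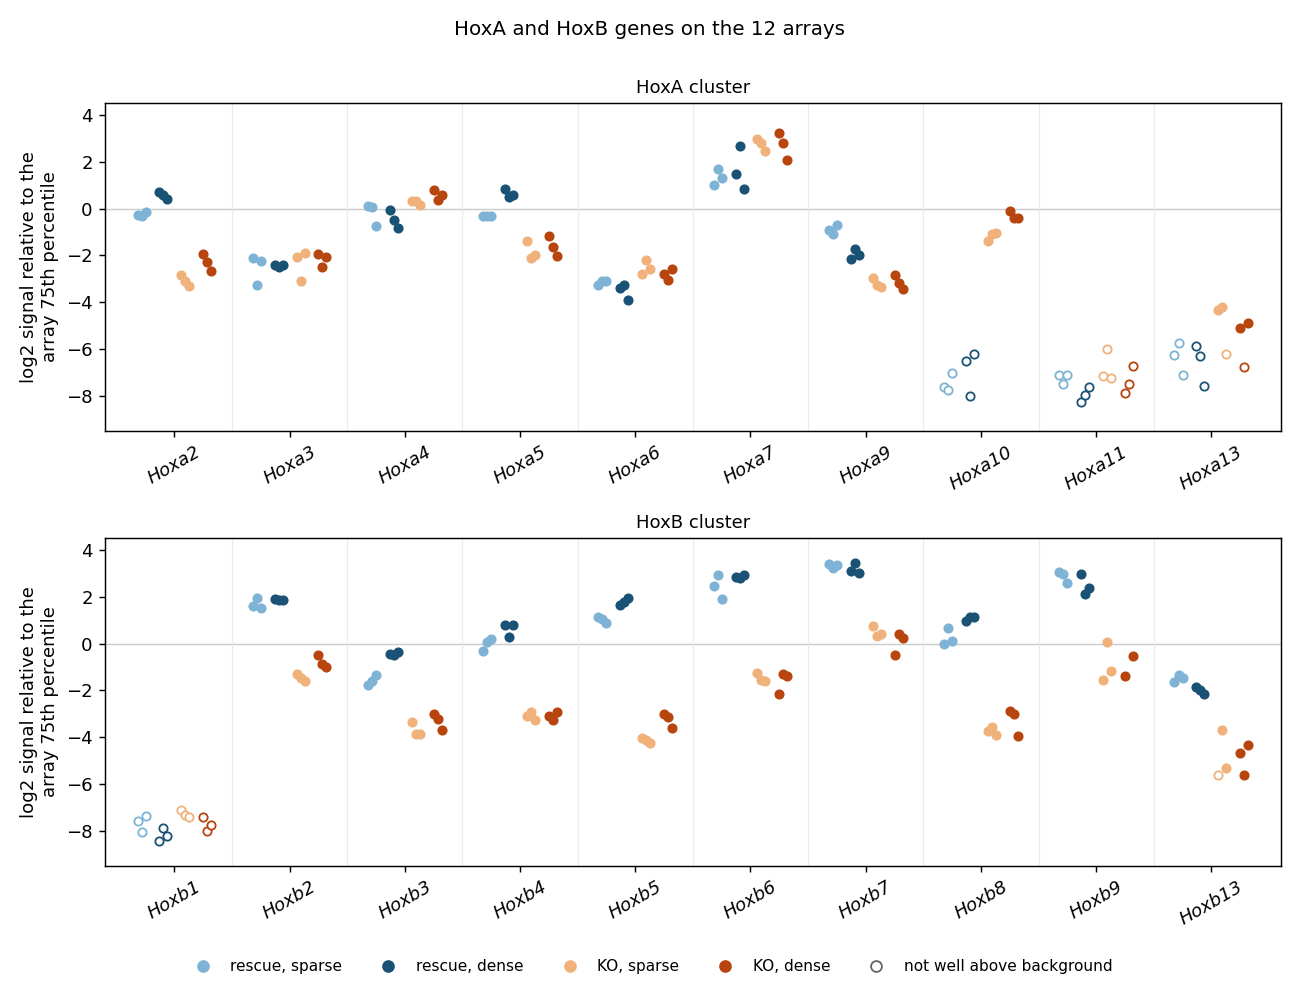
Level on each of the 12 arrays (y axis, log2 signal relative to the 75th percentile of the array) of the probe that stands for each HoxA and HoxB gene (x axis), 3 points per group in day order, open where not well above background. Rescue points lie above KO points for Hoxb2 to Hoxb9 and Hoxb13, and Hoxa10 is open in rescue cells and filled in KO cells.

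The HoxA cluster was mixed. Hoxa2, Hoxa5 and Hoxa9 were lower in KO at both densities, Hoxa6, Hoxa7 and Hoxa10 were higher at both, Hoxa4 was higher in dense cells alone, and Hoxa3 passed in neither. Hoxa10, which patterns the lower trunk, uterus and hind limb, was at -7.62, -7.78 and -7.05 in sparse rescue cells and at -6.51, -8.01 and -6.21 in dense rescue cells, none well above background. In KO cells it was at -1.39, -1.08 and -1.05 when sparse and at -0.11, -0.4 and -0.4 when dense. Hoxa10 passed the filter through KO arrays alone, so its direction was set by the filter. It was at least 27.8-fold higher in sparse KO cells (adjusted p = 5.72e-08) and at least 62.2-fold higher in dense KO cells (adjusted p = 3.01e-08). Such a bound sets the mean of the brighter group against the dimmer group's mean of, per array, the higher of the probe's own signal and the lowest signal among probes well above background.

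Its neighbour Hoxa9 went the other way, with -0.92, -1.1 and -0.7 in sparse rescue cells and -2.98, -3.25 and -3.37 in sparse KO cells (4.92-fold lower), and 2.27-fold lower in dense KO cells. Hoxa2, which sets the identity of the second pharyngeal arch, had -0.28, -0.31 and -0.15 in sparse rescue cells and -2.83, -3.11 and -3.33 in sparse KO cells. It was 7.18-fold lower in sparse and 7.27-fold lower in dense KO cells. Hoxa5, needed for lung and neck development, was 2.85-fold lower in sparse and 4.74-fold lower in dense KO cells, and its arrays did not overlap between lines at either density.

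The rises of Hoxa6 and Hoxa7 were smaller and less firm. Hoxa6 was 1.54-fold higher in sparse (adjusted p = 0.0339) and 1.64-fold higher in dense cells (adjusted p = 0.0137). Leaving out 1 array at a time, the sparse difference lay between 0.45 and 0.75 on the log2 scale and did not pass in 5 of the 12 cases, without any 1 of the 3 sparse rescue arrays, KO sparse 2 or KO sparse 3. The dense difference did not pass in 2 cases, without rescue dense 3 (0.53) or KO dense 3 (0.6). Hoxa7 had 1.02, 1.68 and 1.3 in sparse rescue cells and 2.98, 2.8 and 2.46 in sparse KO cells, 2.67-fold higher (adjusted p = 0.0147), and did not pass without rescue sparse 1 (1.26) or KO sparse 1 (1.3). In dense cells rescue and KO arrays of Hoxa7 overlapped (1.49, 2.66 and 0.83 against 3.24, 2.79 and 2.08), and the call (adjusted p = 0.0471) was lost in 10 of the 12 cases, with differences of 0.63 to 1.55. The 0.63 came without rescue dense 3.

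Hoxa4 had a log2 difference of 0.46 ± 0.26 in sparse cells, which did not pass (adjusted p = 0.165). In dense cells it was 1.05 ± 0.26 (adjusted p = 0.00392). The other Hoxa4 probe gave 0.52 and 0.86. Hoxa3 gave 0.18 ± 0.35 and 0.26 ± 0.35 and passed at neither density (adjusted p = 0.694 and 0.54). Its second probe gave -0.71 ± 0.44 in sparse and 0.52 ± 0.44 in dense cells. Hoxa11 was not above background on any array.

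Of the HoxC genes, Hoxc9, Hoxc10 and Hoxc13 were higher in KO cells at both densities. These genes passed the filter through KO arrays alone, so their direction was set by the filter, for Hoxc13 in dense cells alone. Hoxc9, which marks the thoracic level and represses forelimb programs in the spinal cord, was at -6.55, -7.19 and -7.98 in sparse rescue cells and at -8.48, -8.17 and -8.61 in dense rescue cells, none well above background. It was at 1.24, 0.77 and 0.7 in sparse KO cells and at 1.92, 1.69 and 1.11 in dense KO cells. So it lay near background in 1 line and above the 75th percentile of the array in the other. It was at least 118-fold higher in sparse KO cells (adjusted p = 1.78e-09) and at least 239-fold higher in dense KO cells (adjusted p = 2.59e-10).

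Hoxc10, a lumbar and hind limb gene, had -2.94, -1.78 and -2.77 in sparse KO cells and -1.6, -1.96 and -1.64 in dense KO cells. It was above background on 1 of 6 rescue arrays, at -5.69. It was at least 10.2-fold higher in sparse KO cells. It was higher in dense KO cells too (adjusted p = 5.71e-07), where no fold is given because 1 of the 3 dense rescue arrays measured it. Its second probe was well above background on no rescue array and on 5 of 6 KO arrays. Hoxc13, which acts in hair and nail formation, was well above background on the 3 dense KO arrays alone (-3.67, -3.61 and -3.81) and at least 6.19-fold higher there than in dense rescue cells. In sparse cells it passed (adjusted p = 0.00259) with neither line above background, so no fold is given.

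Hoxc4 was well above background on all 12 arrays and nearly level between lines. In sparse cells the difference was -0.14 ± 0.17 (adjusted p = 0.514). In dense cells it was 0.54 ± 0.17 (adjusted p = 0.0153) and did not pass without rescue dense 3 (0.43). Between Hoxc4 and Hoxc9, Hoxc8 was not above background on any array (-8.02 to -6.8).

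Of the 4 tested HoxD genes, Hoxd3, Hoxd4 and Hoxd8 passed the filter through KO arrays alone. Their direction was thus set by the filter, for Hoxd3 in dense cells alone. Hoxd4, a gene of the neck level, was at -7.94, -7.96 and -6.59 in sparse rescue cells and at -8.59, -7.32 and -8.07 in dense rescue cells, none well above background. It was at 1.93, 1.56 and 1.79 in sparse KO cells and at 2.29, 1.4 and 1.12 in dense KO cells. It was at least 213-fold higher in sparse KO cells (adjusted p = 4.2e-09) and at least 244-fold higher in dense KO cells (adjusted p = 2.48e-09).

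Hoxd8, a trunk and kidney gene, was likewise above background on no rescue array (-8.31 to -6.77). Its KO levels were -0.59, 0.13 and 1.01 when sparse and -0.13, -0.09 and 0.34 when dense, at least 71.5-fold and at least 82.6-fold higher. Hoxd9, which acts in forelimb and lumbar nerves, was above background on 5 of 6 rescue arrays with the probe that stands for it. It was 9.48-fold higher in sparse (log2 3.24 ± 0.53, adjusted p = 0.000289) and 12.7-fold higher in dense KO cells (3.66 ± 0.53, adjusted p = 7.3e-05). The 2 Hoxd9 probes differed in rescue cells: the second was above background on no rescue array and on all 6 KO arrays (-1.26 to -0.53). Hoxd3, by the probe that stands for it, was well above background on the 3 dense KO arrays alone (-4.19, -4.76 and -4.2), at least 3.85-fold higher than in dense rescue cells. In sparse cells it passed (adjusted p = 0.000941) with neither line above background by that probe. Its second probe, above background on 1 rescue and 3 KO arrays, was at -5.03, -6.19 and -5.94 in sparse rescue and at -6.22, -4.78 and -6.28 in sparse KO cells, which overlap. With no filter on dim signal that probe stood for the gene, and the sparse call ended (-0.04 ± 0.52, adjusted p = 0.961).

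**Figure D4:**
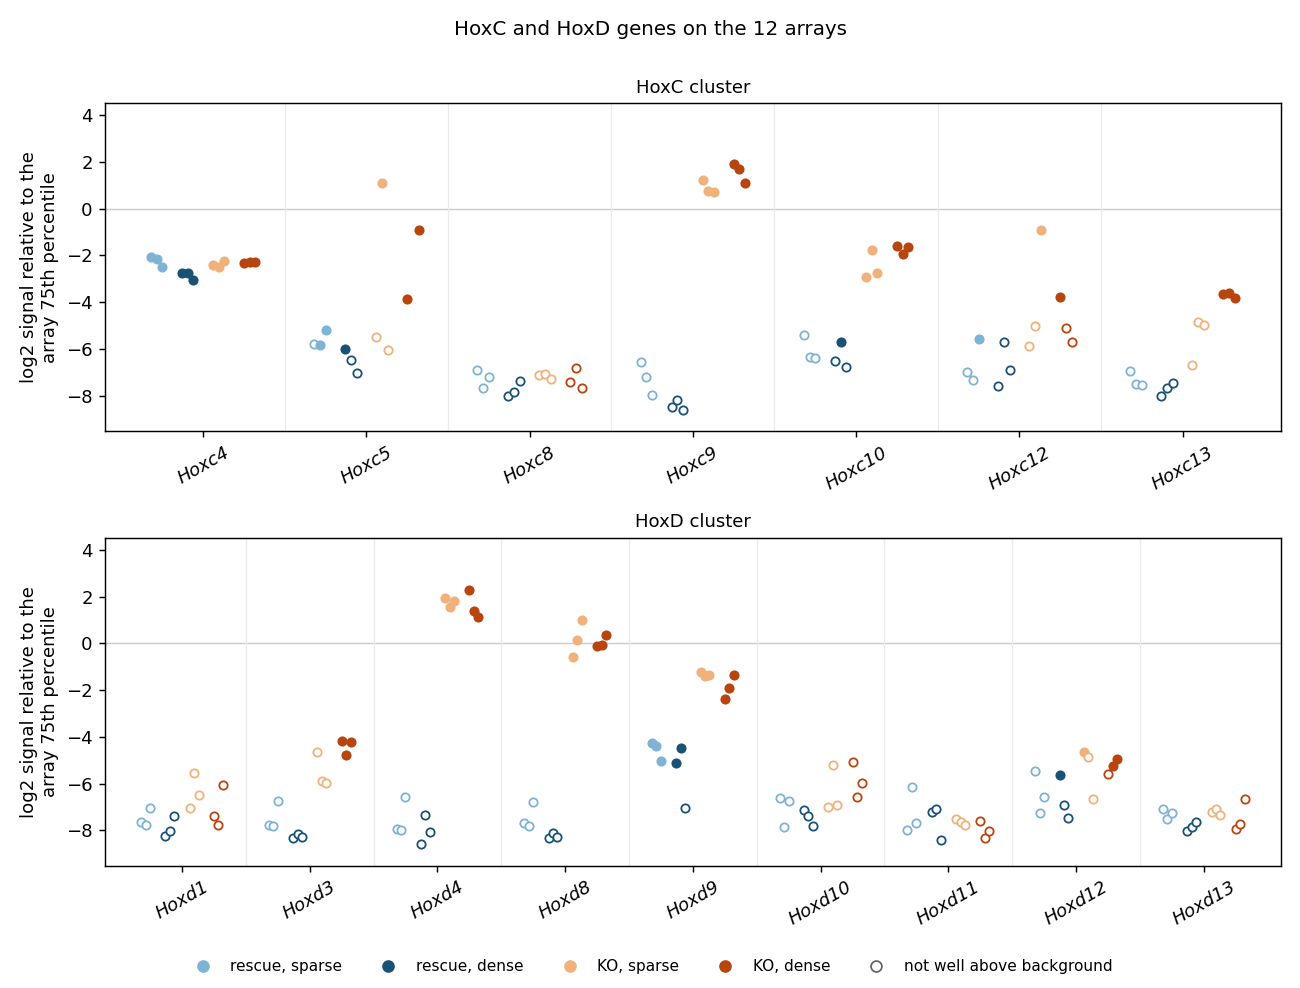
Level on each of the 12 arrays (y axis, log2 signal relative to the 75th percentile of the array) of the probe that stands for each HoxC and HoxD gene (x axis), 3 points per group in day order, open where not well above background. Hoxc9, Hoxd4 and Hoxd8 separate KO from rescue arrays by over 5 log2 units, Hoxc4 lies between -3.07 and -2.07, and Hoxd10 to Hoxd13 stay at or near background.

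Genes of the same paralogue number, which share the most similar homeodomains, moved together in some groups and apart in others. Hoxa10, Hoxc9, Hoxc10, Hoxc13, Hoxd3, Hoxd4 and Hoxd8 passed the filter through KO arrays alone. Their direction was thus set by the filter, for Hoxc13 and Hoxd3 in dense cells alone. In group 9 Hoxa9 and Hoxb9 were lower in KO cells while Hoxc9 and Hoxd9 were higher, at both densities. In group 4 Hoxb4 was lower and Hoxd4 higher at both densities, and Hoxa4 and Hoxc4 were higher in dense cells alone. Within group 3 Hoxb3 was lower, Hoxd3 was higher with the limits given above, and Hoxa3 passed at neither density. Hoxb8 was lower and Hoxd8 higher in group 8, and Hoxb13 was lower and Hoxc13 higher in group 13. Groups 6 and 7 split between a higher HoxA and a lower HoxB gene, with the limits on Hoxa6 and Hoxa7 given above. Groups 2 and 5 held a HoxA and a HoxB gene each, all 4 lower, and both tested genes of group 10 (Hoxa10 and Hoxc10) were higher.

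Seeding density moved about the same share of Hox genes as of all genes in rescue cells, 10 of 26. In rescue cells 6 of 26 were higher when dense (19.1% of all genes were): Hoxa2, Hoxa5, Hoxb3, Hoxb4, Hoxb5 and Hoxb8. Another 4 were lower (21% of all genes), among them Hoxa9, Hoxc4 and Hoxc9, the last with neither density above background. In KO cells 4 were higher when dense (5.45% of all genes): Hoxa2, Hoxb2, Hoxb5 and Hoxc13. None was lower (5.5% of all genes). The median absolute log2 response of the Hox genes was 0.59 in rescue and 0.36 in KO cells, against 0.55 and 0.34 over all genes.

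Hoxa5 rose 1.92-fold with density in rescue cells (log2 0.94 ± 0.24, adjusted p = 0.00833), by 1.15, 0.79 and 0.89 on days 1 to 3. This was the density call that was kept under all 25 alternatives. Hoxa2 rose by 0.82 ± 0.21 in rescue (adjusted p = 0.00798) and by 0.8 ± 0.21 in KO cells (adjusted p = 0.0301). Hoxb5 rose by 0.77 ± 0.19 in rescue (adjusted p = 0.00649) and by 0.87 ± 0.19 in KO cells (adjusted p = 0.0139). Both genes were thus higher when dense in either line, on each of the 3 days. Hoxb3 rose by 1.13 ± 0.22 in rescue cells, but its second probe gave 0.09 ± 0.25. Hoxb4 (0.65) and Hoxb8 (0.83) rose in rescue cells with adjusted p of 0.0245 and 0.0301.

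The counts by density rested on single arrays. Leaving out 1 array at a time gave 4 to 6 higher and 2 to 5 lower Hox genes in rescue cells, and 0 to 5 higher in KO cells. In rescue cells the lower count was 2 without rescue sparse 1 or rescue dense 3. Hoxb4 did not pass without rescue sparse 1, rescue dense 1 or rescue dense 3 (0.5, 0.57 and 0.57). Hoxb8 did not pass without any of 5 rescue arrays (0.7 to 0.89), and Hoxc4 without rescue sparse 1 (-0.53) or rescue dense 3 (-0.5). The same arrays decided Hoxc9 (-0.83 and -1.08). In KO cells the count was 2 without KO sparse 2, 1 without KO sparse 3, 2 without KO dense 1 and 0 without KO dense 2, where Hoxc13 gave 1.76 (adjusted p = 0.0602). It was 1 without day 3. With the day as a replicate block Hoxd8 passed in rescue cells (-0.8 ± 0.28, adjusted p = 0.0414) with neither density above background. Scaling to the spike-in RNA put the median response of all genes at 0.61 in rescue and 2.81 in KO cells, from -0.08 and 0. All 26 Hox genes were then higher in dense KO cells, as were 12310 of the 12411 genes tested. Scaling to the array median gave 7 higher and 0 lower in KO cells, with the median of all genes at 0.25.

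**Figure D5:**
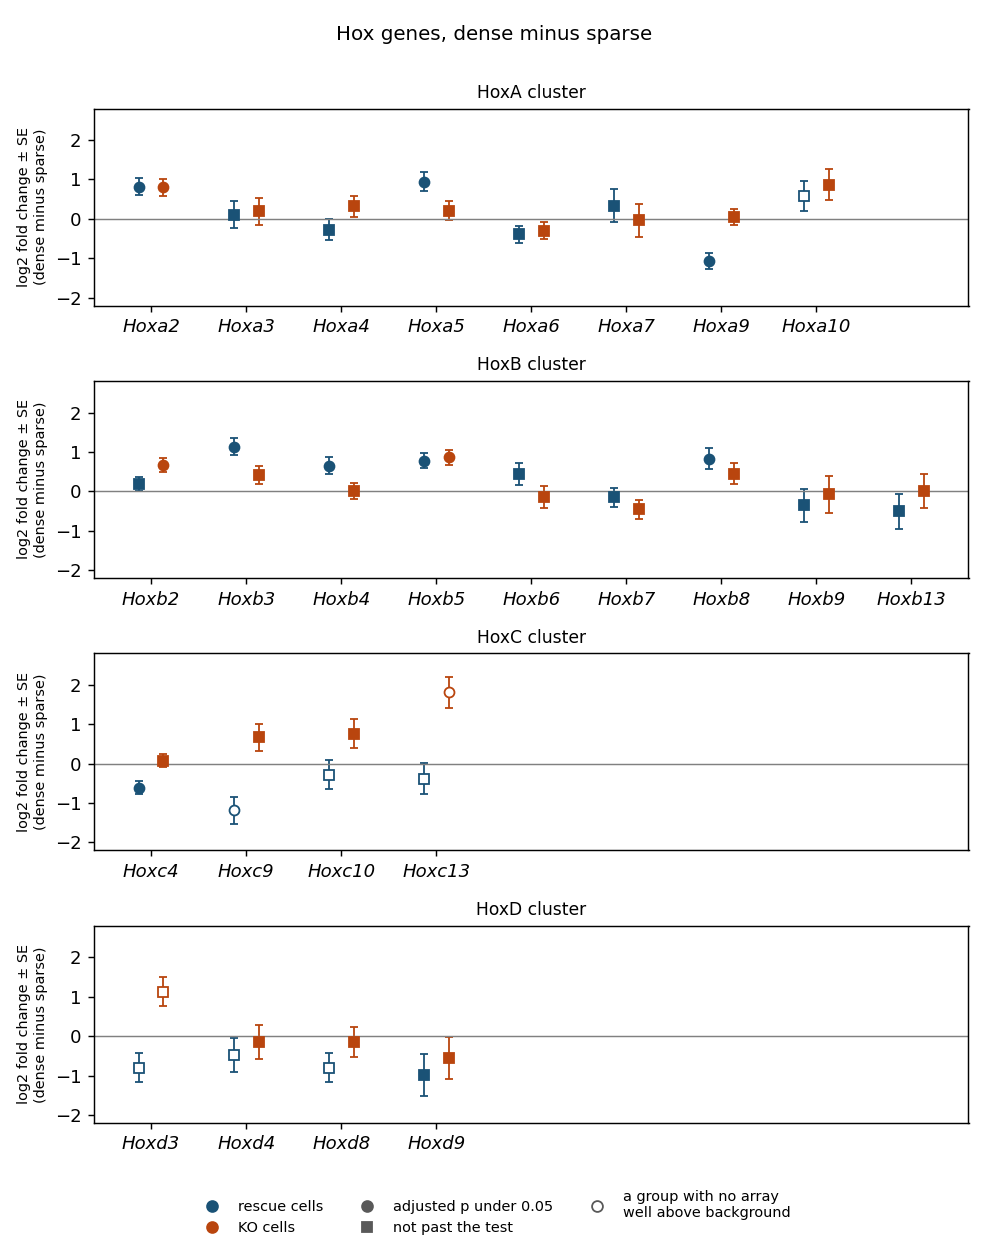
Log2 fold change of dense minus sparse (y axis, with SE from the model) for 25 tested Hox genes in cluster order (x axis), in rescue and KO cells, 3 arrays per group, with symbols as in the plot of KO minus rescue. Hoxa2 and Hoxb5 lie above 0 in both lines, and Hoxa9 lies at -1.07 in rescue and 0.05 in KO cells.

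The density response differed between the lines (interaction) for 5 Hox genes, all with a more positive response in KO cells (11.3% of all genes were positive and 9.52% negative). Hoxa9 fell 2.1-fold with density in rescue cells and gave 0.05 ± 0.21 in KO cells, an interaction of 1.12 ± 0.29 (adjusted p = 0.0187). The Hoxa9 interaction did not pass without day 3 or with normexp background correction. Hoxc9 (1.85), Hoxc13 (2.19) and Hoxd3 (1.93) also passed, with no rescue array above background by the probes that stand for them. Hoxc13 and Hoxd3 entered the tests through the 3 dense KO arrays alone, so the sign of their interaction was set by the filter. The Hoxd3 interaction did not pass without KO sparse 3 (1.69) or KO dense 3 (1.84). Without day 3, 2 interactions passed.

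The partners and regulators of Hox genes were read from lists of known genes. Each count stands beside the shares over all genes tested, which were 23.3% higher and 25.6% lower in sparse and 31.9% higher and 29.8% lower in dense KO cells. A gene given as at least some fold at both densities was well above background on no array of the line where it was lower. Such a gene passed the filter on dim signal through the other line alone, so its direction was set by the filter. Hand2 passed through KO arrays alone and Skap1 through rescue arrays alone. The counts include such genes without a split. Of 11 TALE homeobox genes, the family of the Pbx and Meis partners, 5 were higher and 3 lower in sparse KO cells, and 4 higher and 2 lower in dense KO cells. Meis3 was lower (-1.01 ± 0.24 and -1.24 ± 0.24). Pbx2 (1.06 ± 0.27 and 1.46 ± 0.27) and Pknox2 were higher. Tgif2, a repressor of the family, rose most (3.78 ± 0.27 and 3.71 ± 0.27). Meis1, Meis2 and Pbx3 passed at neither density, with differences between -0.62 and 0.53. The list's median was 0.53 in sparse and 0.25 in dense cells.

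Of 31 tested Polycomb genes, 12 were higher and 5 lower in sparse KO cells (23.3% and 25.6% over all genes), and 18 higher and 5 lower in dense KO cells (31.9% and 29.8% over all genes), with medians of 0.44 and 0.62. Ezh2, the methyltransferase that sets the silencing mark on histone H3, was higher by 2.21 ± 0.25 and 2.95 ± 0.25. Cbx7, a reader of that mark, was not well above background in KO cells, where it was lower by a factor of at least 19.9 (sparse) and 48.2 (dense). Phf19 (-3.61 ± 0.24 and -1.31 ± 0.24) and Scmh1 (-2.5 ± 0.2 and -2.01 ± 0.2) were lower as well. Of 16 Trithorax and H3K27 demethylase genes, 4 were higher and 1 lower in sparse cells and 7 higher and 2 lower in dense cells, beside the same shares over all genes, with medians of 0.09 and 0.17. Wdr5, a core subunit of the complexes that mark active genes, was higher in dense cells (1.57 ± 0.18) and gave 0.23 ± 0.18 in sparse cells, and the demethylase Kdm6b was lower in dense cells (-1.04 ± 0.24).

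Of 15 tested genes of the retinoic acid axis, 4 were higher and 5 lower in sparse KO cells (23.3% and 25.6% over all genes). In dense KO cells 3 were higher and 7 lower (31.9% and 29.8% over all genes). The medians were -0.73 (sparse) and -1.23 (dense). Aldh1a1, which makes retinoic acid, was higher by 8.43 ± 0.27 in sparse and 7.29 ± 0.27 in dense cells. Rarb, a receptor and itself a target of retinoic acid, was lower, at least 11.5-fold when sparse and 73.2-fold when dense. Crabp2, a carrier of retinoic acid, was lower in dense cells (adjusted p = 0.000115), with 1 of 3 dense KO arrays above background.

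Transcription factors of other body regions were read in the same way. Of 43 tested, 7 were higher and 23 lower in sparse KO cells, against 23.3% and 25.6% of all genes. In dense KO cells 12 were higher and 22 lower, against 31.9% and 29.8% of all genes. The list's medians were -1.45 (sparse) and -1.12 (dense). Tcf21, a factor of visceral mesenchyme and the epicardium, was above background on no rescue array and at least 158-fold and at least 392-fold higher in KO cells. Its direction was set by the filter. Irx1 was lower (at least 87.3-fold and 118-fold), and Prrx2, a gene of limb and craniofacial mesenchyme, was lower (-9.12 ± 0.21 and -8.17 ± 0.21). Among those chosen after their values were seen, Tbx5, the forelimb field factor, was lower (at least 23-fold and 59.2-fold), and Hand2, of lateral plate mesoderm, was higher in sparse cells (adjusted p = 6.1e-07), with 1 of 3 rescue arrays above background, and at least 134-fold higher in dense cells. Of 9 axial patterning genes, Lin28a (at least 15.8-fold and 32.3-fold) and Lin28b (at least 39.7-fold and 38.2-fold) were higher in KO cells. Fgf10, the limb bud signal, was lower (at least 15.3-fold and 21.3-fold), and Gdf11, which sets the trunk-to-tail transition, was lower (-0.82 ± 0.28 and -2 ± 0.28). Of these 9 genes 6 were higher and 2 lower in sparse cells (23.3% and 25.6% over all genes). In dense cells 5 were higher and 3 lower (31.9% and 29.8% over all genes). Only 2 of 8 ParaHox and Evx genes entered the tests, and no Cdx gene did. Gsx1 passed in dense cells (0.94 ± 0.37).

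Genes just outside the clusters were counted as well. Of 19 tested neighbours, 4 were higher and 3 lower in sparse KO cells, against 23.3% and 25.6% of all genes. In dense KO cells 8 were higher and 4 lower, against 31.9% and 29.8% of all genes. The medians were 0.13 (sparse) and 0.29 (dense). At the HoxD end, Mtx2, next to Hoxd1, was higher by 1.16 ± 0.22 and 1.88 ± 0.22, and Evx2, next to Hoxd13, passed at neither density (0.18 ± 0.46 and 0.29 ± 0.46). At HoxB, Skap1 was lower (adjusted p = 0.000534 in sparse cells, with 1 of 3 KO arrays above background, and at least 2.58-fold in dense cells), the direction of the HoxB genes beside it, while Ttll6 on the other side gave -0.03 ± 0.29 and -0.2 ± 0.29. At HoxA, Skap2 was lower in dense cells alone (-1.08 ± 0.31). Beside HoxC, Smug1 was lower (-0.73 ± 0.16 and -0.74 ± 0.16) and Calcoco1 was lower in dense cells alone (-1.4 ± 0.26).

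Markers of cell types moved with the line as well. Of 14 fibroblast markers, 12 entered the tests. Those well above background on all 3 arrays of a group numbered 12 in rescue and 11 in KO cells. Col1a1, Col1a2 and Vim were among them in both lines. Levels differed: Col1a1 had means of 7.34 and 7.33 in sparse and dense rescue cells against 4.93 and 5.44 in KO cells. Pdgfrb had 3.77 and 5.1 against -3.79 and -1.27. Dcn (1.24 and 5.79 against 6.01 and 6.2) and Fbln1 (-0.38 and 0.4 against 0.9 and 1.17) went the other way. Lum was above background on the 3 dense rescue arrays alone, and Fap on no array. All 12 mesothelial markers on the array were well above background on all 3 arrays of a KO group and 5 of 12 of a rescue group. Wt1, Upk3b, Lrrn4 and Bnc1, which define that lining cell, were on no rescue array. Msln, of the same list, was well above background on all 12 arrays and had mean levels of 5.01 and 4.86 in sparse and dense rescue cells against 3.7 and 3.2 in KO cells. Krt8 had 2 and 0.33 against 1.92 and 2.12. The mean log2 level over the mesothelial markers was -5.15 to -3.83 on the rescue arrays and 2.72 to 3.27 on the KO arrays. This mean includes Wt1, Upk3b, Upk1b, Lrrn4, Gpm6a, Bnc1 and Rspo1, which passed the filter on dim signal through KO arrays alone. The filter thus selected these markers for higher KO levels, and the gap in the mean is no separate result. The fibroblast markers had means of 3.31 to 5.16 on the rescue and 2.53 to 2.86 on the KO arrays. Lum entered that mean through dense rescue arrays alone. The part of the mesothelial markers in the Hox differences between the lines was not tested. Of the other lists, 4 of 6 epithelial markers were well above background on all 3 arrays of a rescue group and 2 of 6 of a KO group. The counts were 1 and 1 of 6 for endothelial, 2 and 2 of 5 for blood, 2 and 3 of 6 for skeletal muscle and 2 and 3 of 5 for neural markers. Sox2, Pecam1, Ptprc and Myf5 were above background on no array, while Csf1r, Cd14, Tubb3, Nes, Actc1 and Des were on all 12. Elavl3 was above background on the 6 KO arrays, Kdr on the 3 dense rescue arrays and Tek on the 3 dense KO arrays.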

How the data were processed

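Total RNA (100 ng per culture) was labelled with Cy3 and hybridised to Agilent 1-colour arrays, per the labels' protocols. Per the file headers, the authors' scanner files hold the processed intensity of each spot, written by Feature Extraction 10.5.1.1 after its own background subtraction and not normalised between arrays, on a grid named for build mm8. The deposited value table holds log2 intensity with column medians of 8.38 to 8.39 on 27572 probes; its normalisation and centring are not given in the sources used here. It served as an alternative.

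Outlier spots, 79 to 265 an array, were treated as missing, 245 probes printed 10 times were averaged, and the 75th percentile of each array (294 to 1590 intensity units) was subtracted. No spot was saturated. Probes were named by RefSeq transcript (GRCm38.p6 list): 24375 of 41174 had 1 gene. A probe entered the fit if it was well above background throughout the 3 arrays of some group, and the brightest stood for its gene. limma 3.58.1 in R 4.3.3 fitted 1 mean per group (8 residual and 3.63 prior degrees of freedom), with 5 comparisons and Benjamini-Hochberg adjustment over 12411 genes. The fit was tested on simulated data. With 3 against 3 a permutation test cannot go below 0.1, so no test of a single gene outside the model was used. The number of arrays limits the precision.

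Every Hox gene was counted; 1 of them, and some genes of the supporting lists, are included in counts but not reported here. From each supporting list up to 4 called genes of greatest change, and the greatest in the opposite direction, could be named, and Pbx, Meis, Pknox, Cdx and flanking genes whatever their values. Members and lists were chosen with earlier results of these data known. The labels tie replicate numbers to shared days. Deviations from group means correlated above 0.1 in 11 of 18 same-day pairs (-0.0366 to 0.295), and the block was an alternative. Alternatives covered background correction, scaling, filters, probes, blocks, samples and the deposited table. The mean signal was not used for normexp, as planned, because the median signal is what the files hold.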

Additional observations from a re-analysis of the deposited data

Results flagged for a closer look

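The density response differed between the lines, by the interaction term of the limma fit, for 5 Hox genes, 4 of which are given here. For Hoxa9 the interaction was 1.12 ± 0.29 (adjusted p = 0.0187), from -1.07 and 0.05, and did not pass without day 3 or with normexp background. For Hoxc9 it was 1.85 ± 0.47 (adjusted p = 0.0177), from -1.18 in rescue cells, where no array was well above background, and 0.67 in KO cells. Hoxc13, which entered the tests through dense KO arrays alone, gave 2.19 ± 0.57 (adjusted p = 0.0185), from -0.38, below background at both densities in rescue cells, and 1.81. Hoxd3 gave 1.93 ± 0.52 (adjusted p = 0.0225), from -0.8, below background in rescue cells by the probe that stands for it, and 1.13; it too entered through dense KO arrays alone. Its second probe was above background on 1 rescue array, and with no filter on dim signal the interaction was 1.44 and did not pass. Leaving out 1 array at a time, the interactions of Hoxa9, Hoxc9 and Hoxc13 passed in all cases. Their largest adjusted p in these limma fits was 0.0488, 0.043 and 0.0446. That of Hoxd3 did not pass without KO sparse 3 or KO dense 3. Groups of 3 were too small to call a single array an outlier.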

How the results depend on the processing

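Of 3354 values of single Hox genes under the alternatives, 3077 kept the side of the threshold, 201 lost the threshold, 49 gained it and 27 turned sign. A turn of sign was counted, and is named below, only where the main fit or the alternative passed. Turns of sign where neither passed are among the 3077. These values include the deposited table as labelled, which gave 0 Hox calls. Spike-in scaling added 22 Hox calls in KO density and 21 in the interaction, some with a turned sign. Why the values changed was not tested. Normexp background gave 6 (sparse) and 8 (dense) genes higher in KO, 1 higher and 1 lower with density in rescue cells, 0 higher with density in KO cells and 1 interaction, and turned Hoxd3's interaction to -0.08. Spike-in scaling gave 6 genes higher in sparse KO cells, 0 lower with density in rescue cells, and 26 higher with density in KO cells and 26 interactions. It turned Hoxa3 (-1.28), Hoxa4 (-1), Hoxa6 (-0.84) and Hoxa7 (-0.04) in sparse cells and Hoxc4 (0.08) in rescue density. In KO density it turned Hoxa6 (2.51), Hoxa7 (2.77), Hoxb6 (2.68), Hoxb7 (2.36), Hoxb9 (2.68), Hoxd4 (2.66), Hoxd8 (2.67) and Hoxd9 (2.26). In the interaction it turned Hoxa2 (2.11), Hoxa5 (1.4), Hoxa7 (1.76), Hoxb3 (1.41), Hoxb4 (1.49), Hoxb6 (1.55), Hoxb7 (1.82) and Hoxb8 (1.75). Of all calls under spike-in scaling, 6.61% were higher in sparse KO cells; under median scaling 30.6% were, as were 80.7% in KO density and 70.8% in the interaction. Median scaling gave 7 higher in KO density. Without a filter, KO density gave 2 and Hoxd3 in sparse cells -0.04; fitting the compared groups alone gave 2. The deposited table as labelled gave 0 calls throughout and turned Hoxa4 (-0.01), Hoxa6 (-0.22), Hoxc4 (0) and Hoxd9 (-0.02) in dense cells. Chosen after seeing the data, its days 1 and 2 gave 2 lower with density in rescue cells, and the scanner files' days 1 and 2 gave 1 higher in KO density and 2 interactions.

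With 1 array left out, the counts of higher and lower genes were 8 to 10 and 12 to 13 (sparse), 10 to 13 and 12 (dense), 4 to 6 and 2 to 5 (rescue density), 0 to 5 and 0 (KO density), and 4 to 6 and 0 (interaction). The fit with the day as a replicate block gave 10 and 13, 13 and 12, 6 and 5, 5 and 0, and 5 and 0, adding 1 call in KO density and Hoxd8 in rescue density and changing no other. The slide as a fixed block lost 3 calls in sparse cells, Hoxa6 and Hoxa7 among them, and Hoxa6, Hoxa7 and Hoxc4 in dense cells. As a random block the slide lost no Hox call and added Hoxd3 in KO density and Hoxc4 in the interaction. Signal over background limits Hoxc13, Hoxd3 and the rescue levels of Hoxa10, Hoxc9, Hoxd4 and Hoxd8.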
